A study of Mus musculus with 6 samples.

Results

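The genes of this account are 42 regulators and effectors of the mouse cell cycle, out of 47643 annotated genes in the tables. They are the rows with an Ensembl gene ID whose gene name stands on a fixed list, which falls into 16 genes of G1 control, 11 of DNA replication and 15 of mitosis. Each of the 42 had 1 entry in every library, all are annotated as protein coding, and all passed the filter on low values. They were measured by RNA sequencing in 6 libraries of induced regulatory T cells (iTreg). The tested cells, 3 libraries, had 100 nM prostaglandin E2 (PGE2, a lipid mediator that raises cAMP through its receptors EP2 and EP4) for 6 h; the control cells, also 3 libraries, had vehicle (DMSO) for the same time. Both groups were CD4+ splenic T cells of C57BL/6 mice with the Foxp3-DTR/EGFP allele, in which diphtheria toxin receptor and EGFP report on Foxp3; they had been grown for 2 days with anti-CD3, anti-CD28 and TGF-β, and were sorted for EGFP after treatment. The labels used here name neither an age nor a number of animals, and do not say whether replicates were separate cultures, so the p-values cover only the spread between these samples, which may be technical.

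In a dividing T cell, D-type cyclins with Cdk4 or Cdk6 phosphorylate the retinoblastoma proteins, which releases E2F factors to transcribe cyclin E and the genes of DNA replication. Cyclin A, the B-type cyclins and Cdk1 then drive entry into mitosis, whose genes are read late in the cycle, when the DREAM complex no longer holds them down and B-MYB and FOXM1 act on their promoters. Activation through CD3 and CD28 brings resting T cells into cycle, and inhibitors of the INK4 and CIP/KIP families hold the kinases back.

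The sequence before the transcription start is where E2F factors and the DREAM complex bind, so it was searched for their motifs. RefSeq's promoter table (GRCm38.p6) matched 35 of the 42 genes, with 40 windows of 250 bases. An E2F word was taken as TTTCCCGC, TTTGGCGC, TTTCGCGC or TTTGCCGC, a CHR word (the element read by DREAM and B-MYB) as TTTGAA or TTCGAA, and an NF-Y word as CCAAT, each on both strands; E2F words may overlap each other. An E2F word was in 40% of 10 replication windows, 7.7% of 13 mitosis windows and 23.5% of 17 G1 windows, against 1.9% of 32851 windows of all genes. A CHR word was in 20% of replication, 53.8% of mitosis and 11.8% of G1 windows, against 17.1% of all. CCAAT was in 70%, 92.3% and 47.1% in the same order, against 33.8% of all. The 4 windows printed belong to the replication members with the largest differences between the groups, to Ccnb2, which had the second largest difference among the mitosis members, and to the most abundant mitosis member; capitals mark these words on either strand, and each ends just before the start site.
Mcm2 (chr6:88898781-88899030, minus strand): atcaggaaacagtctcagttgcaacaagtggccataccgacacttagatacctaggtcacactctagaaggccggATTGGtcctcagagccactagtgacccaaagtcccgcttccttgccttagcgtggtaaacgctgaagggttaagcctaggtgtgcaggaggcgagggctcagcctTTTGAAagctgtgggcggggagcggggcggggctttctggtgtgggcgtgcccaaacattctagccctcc
Mcm6 (chr1:128359706-128359955, minus strand): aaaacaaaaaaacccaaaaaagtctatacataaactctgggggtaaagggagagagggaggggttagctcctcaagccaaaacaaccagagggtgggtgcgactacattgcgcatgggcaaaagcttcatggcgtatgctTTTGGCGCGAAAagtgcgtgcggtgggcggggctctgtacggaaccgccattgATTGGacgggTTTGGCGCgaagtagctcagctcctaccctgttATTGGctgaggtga
Ccnb2 (chr9:70421555-70421804, minus strand): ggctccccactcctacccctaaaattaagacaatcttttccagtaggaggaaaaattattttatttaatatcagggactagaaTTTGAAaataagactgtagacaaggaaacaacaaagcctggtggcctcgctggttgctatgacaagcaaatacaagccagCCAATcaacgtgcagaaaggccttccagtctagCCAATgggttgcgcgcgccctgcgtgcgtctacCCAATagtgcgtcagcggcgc
Top2a (chr11:99024190-99024439, minus strand): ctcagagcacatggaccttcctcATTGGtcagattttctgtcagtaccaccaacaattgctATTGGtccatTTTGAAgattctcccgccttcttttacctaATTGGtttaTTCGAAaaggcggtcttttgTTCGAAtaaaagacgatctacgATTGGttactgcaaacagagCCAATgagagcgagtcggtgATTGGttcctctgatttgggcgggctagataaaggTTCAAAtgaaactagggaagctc
The Mcm6 window holds 3 E2F words, 2 of which overlap, and the Mcm2 window none, while the Ccnb2 and Top2a windows hold CHR and CCAAT words and no E2F word.

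As a check of the cells, Cd3e, Cd4, Foxp3 and Il2ra were present in every library, Foxp3 at 135.6, 119.4 and 91.1 FPKM (fragments mapped to a gene, scaled by transcript length and library depth) with PGE2, against 99.4, 101.4 and 75.4 with vehicle. Markers of myeloid cells summed to 0.255 to 0.492 FPKM with PGE2 and 0.21 to 0.867 with vehicle over 6 genes, and those of erythroid cells and platelets to 1.02 to 1.6 and 1.07 to 1.51. Of the B cell genes, Cd79b was at 3.02 to 3.63 FPKM with PGE2 and 3.42 to 5.32 with vehicle, and Ms4a1 stood at or below 0.0357 and 0.0248. Of the stromal and endothelial markers Pecam1 alone passed 1 FPKM, at 10.4 to 11.9 and 9.06 to 10.6, with Col3a1 at 0. The CD8 and NK list summed to 10.4 to 13.2 and 9.87 to 13.2 FPKM, with Ncr1 and Klrb1c at 0. Depth, taken as the constant that links coverage to FPKM, was 4.54 to 5.45 gigabases of fragments with PGE2 and 4 to 5.12 with vehicle, and replicate 3 was the shallowest library of each group.

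In the unpaired fit none of the 42 genes rose or fell with PGE2 beyond the spread between replicates, and in the fit paired by replicate number only Cenpa rose. By limma on log2(FPKM + 1) with adjustment over all 12113 tested genes, 0 rose, where 0.57% of tested genes rose, and 0 fell, where 0.239% fell (0.809% in either direction). At an unadjusted p under 0.05, 0 members were higher and 2 were lower (Ccnd2 and Rb1), against 5.46% and 7.59% of tested genes. With libraries paired by replicate number the same count was 6 higher (Cdkn1b, Cdkn2c, Cdkn2d, Ccnb2, Aurka and Cenpa) and 2 lower (again Ccnd2 and Rb1), against 8.48% and 11.2% of tested genes. After adjustment that paired fit called 1 member, Cenpa, which was higher. The pairing is an assumption, since a check could not tell numbers 1 and 2 from each other. Results by same-numbered pair, here and below, rest on it. The differences ranged from -0.26 to 0.44 (log2), that is from 0.837-fold to 1.36-fold. Their 95% intervals lay within -0.69 and 0.9 (log2), which bounds the shifts these libraries leave possible. The 42 genes were well expressed, from 8.22 to 318 FPKM on average over the 6 libraries, and their median stood at the 87.3rd percentile of tested genes.

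**Figure D1:**
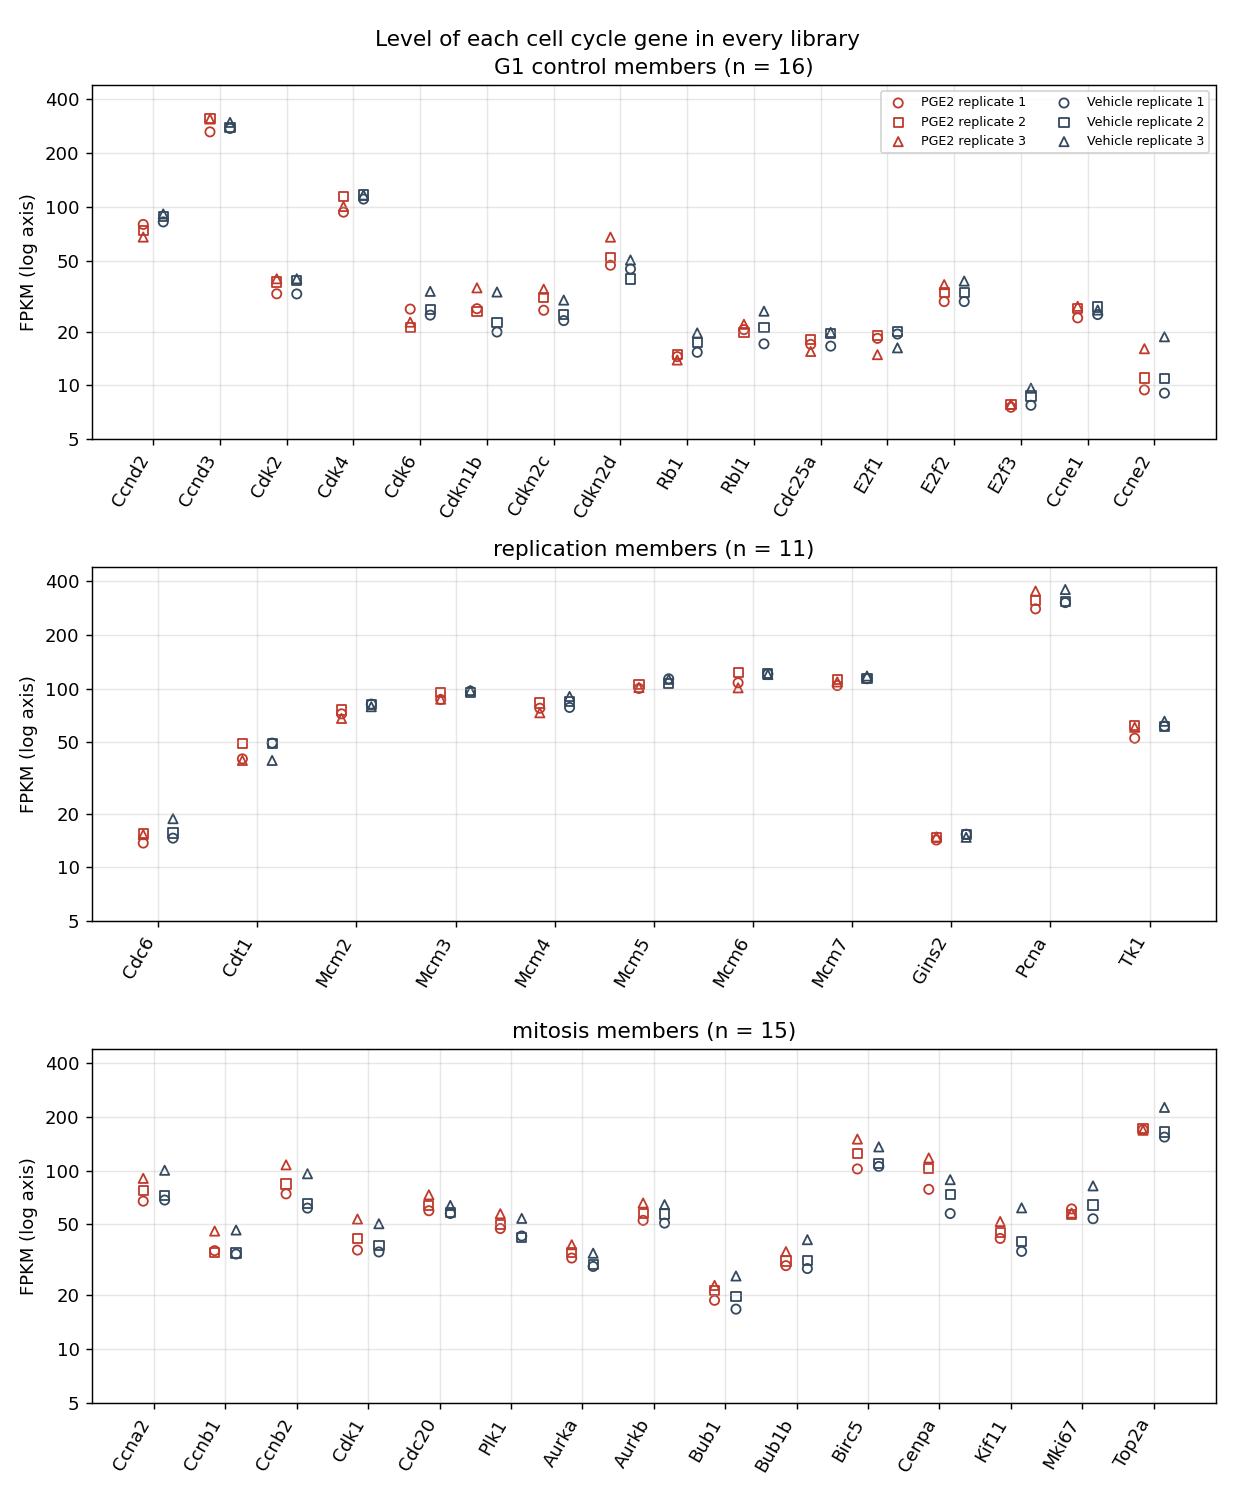
FPKM (log axis) of each of the 42 genes in every library, PGE2 in red left of vehicle in blue, with a marker shape for each replicate. Ccnd3 and Pcna stand highest; the triangles of replicate 3 lie at the top for most mitosis members in both groups.

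G1 control genes gave both of the members below an unadjusted p of 0.05. Ccnd2 (ENSMUSG00000000184.12, chromosome 6, 127125162 to 127152193, minus strand, mm10) encodes cyclin D2, a D-type cyclin induced when lymphocytes are activated. It was at 79.6, 73.8 and 67.6 FPKM in PGE2 libraries 1, 2 and 3, against 82.2, 88.2 and 91.1 in vehicle libraries 1, 2 and 3. All 3 PGE2 libraries lay below all 3 vehicle libraries, but PGE2 library 1 and vehicle library 1 were close. The difference was -0.24 (log2, SE 0.09, 95% interval -0.46 to -0.03), with adjusted p = 0.32 by limma. Ccnd3, the D-type cyclin with the highest FPKM of the G1 genes, was at 262.2, 310.3 and 309.4 FPKM in PGE2 libraries 1 to 3, against 273.98, 277.7 and 296.4 in vehicle libraries 1 to 3. The groups overlapped, with a difference of 0.05 (log2, 95% interval -0.18 to 0.29) that took the opposite sign under quantile normalization. Ccnd1, the third D-type cyclin, averaged 0.204 FPKM over the 6 libraries and was not tested.

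Rb1 (ENSMUSG00000022105.6, chromosome 14, 73183673 to 73325822, minus strand) encodes the retinoblastoma protein that binds E2F factors. It was at 14.5, 14.9 and 13.9 FPKM in PGE2 libraries 1 to 3, against 15.3, 17.4 and 19.7 in vehicle libraries 1 to 3. In FPKM the groups did not overlap, and vehicle library 3 stood highest. The difference was -0.26 (log2, SE 0.11), with adjusted p = 0.36 by limma. Read coverage of Rb1 was low, at 4.31, 4.13 and 3.13 in PGE2 libraries 1 to 3, against 4.04, 4.74 and 3.94 in vehicle libraries 1 to 3. In coverage, scaled between libraries by the median ratio, the added 1 weighs more at such values. There the difference was -0.17 (log2, adjusted p = 0.54 by limma). Rbl1, its relative p107, differed by -0.02 (log2). Cdk6, a kinase partner of the D-type cyclins, was at 26.7, 21 and 22.6 FPKM with PGE2, against 24.7, 26.6 and 33.6 with vehicle. The groups overlapped at PGE2 library 1, and the difference was -0.26 (log2, 95% interval -0.58 to 0.07). In coverage the difference of Cdk6 was -0.15 (log2), and its ratio of coverage to FPKM moved 1.16-fold between libraries. Its annotated entry was 81.4% to 86.5% of the assembled locus. Cdk4, the other such kinase, was lower with PGE2 in each of the same-numbered pairs, at 102.4 ± 10.4 FPKM with PGE2 and 114.3 ± 3.44 with vehicle (SD, n = 3 each; adjusted p = 0.56 by limma). Cdk2, the partner of cyclins E and A, stood at 36.6 ± 3.64 and 36.8 ± 3.79 FPKM.

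The CDK inhibitors did not share a direction: the 3 on the list, Cdkn1b, Cdkn2c and Cdkn2d, had higher means with PGE2, and 3 others tested, Cdkn1a, Cdkn2a and Cdkn2b, had lower means. None passed the test. Cdkn2d, an INK4 inhibitor of Cdk4 and Cdk6, was at 47, 51.8 and 67.6 FPKM in PGE2 libraries 1 to 3, against 44.9, 39.4 and 50.3 in vehicle libraries 1 to 3. PGE2 library 3 was the highest, and the groups overlapped because PGE2 library 1 lay under vehicle library 3. The difference was 0.29 (log2, SE 0.15, 95% interval -0.07 to 0.65), with adjusted p = 0.49 by limma. Cdkn2c, another INK4 inhibitor, was at 30.7 ± 4.13 FPKM with PGE2 and 26 ± 3.6 with vehicle (SD, n = 3 each), a difference of 0.23 (log2). Cdkn1b, a CIP/KIP inhibitor of Cdk2, was at 29.3 ± 5.07 and 25.3 ± 7.11 FPKM, also a difference of 0.23 (log2). In each same-numbered pair of libraries these 3 inhibitors were higher with PGE2, and they were the 3 of 16 G1 members of which this held, where it held for 17.7% of tested genes. With the pairing as a block their adjusted p stayed at 0.15, 0.15 and 0.23 by limma for Cdkn2c, Cdkn2d and Cdkn1b. Cdkn1a, the CIP/KIP inhibitor p21, was at 122.7, 101.4 and 136.7 FPKM in PGE2 libraries 1 to 3, against 146, 124.4 and 163 in vehicle libraries 1 to 3. It was lower with PGE2 in each pair, and the groups overlapped (difference -0.27, log2, SE 0.14, adjusted p = 0.51 by limma). Cdkn2a and Cdkn2b, INK4 genes near the limit of the filter, differed by -0.20 and -0.29 (log2).

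None of the E2F factors or cyclin E genes passed the test. E2f1, an activator of replication genes, was at 17.4 ± 2.25 FPKM with PGE2 and 18.5 ± 2.02 with vehicle. E2f2, another activator, was at 33 ± 3.6 and 33.6 ± 4.49 FPKM, and E2f3, the lowest of the 42 genes, at 7.74 ± 0.167 and 8.71 ± 0.954 (SD, n = 3 each). Among E2F factors outside the list, E2f4 and E2f6, which act as repressors, were lower with PGE2 with no overlap, at 50.8 ± 2.65 and 11.6 ± 0.527 FPKM with PGE2 and 58.6 ± 4.05 and 14.2 ± 1.55 with vehicle. Their differences were -0.20 and -0.27 (log2), with adjusted p = 0.39 and 0.31 by limma. Such groups, with every PGE2 library below every vehicle library, made up 11.9% of tested genes. E2f5, E2f7 and E2f8, the other E2F factors tested outside the list, differed by -0.29, -0.06 and -0.13 (log2), and their groups overlapped. Ccne1, a cyclin E, differed by -0.01 (log2). Ccne2, the other cyclin E, had the widest 95% interval, -0.69 to 0.6 (log2), because it varied between replicates: 9.44, 11 and 16 FPKM in PGE2 libraries 1 to 3, against 9.05, 10.9 and 18.7 in vehicle libraries 1 to 3. Cdc25a, the phosphatase that activates Cdk2, was at 16.8 ± 1.3 and 18.7 ± 1.79 FPKM. In all, 12 of the 16 G1 members had a lower mean with PGE2, and 5 (Ccnd2, Cdk4, Rb1, E2f1 and E2f3) were lower in each pair, where 24.5% of tested genes were. In read coverage scaled by the median ratio 7 had a lower mean. The signs that turned there were those of Cdk2, Rbl1, E2f2, Ccne1 and Ccne2, which differed by only -0.05 to -0.01 (log2) in FPKM. The median difference was -0.03 (log2), the same as over all tested genes, and it was 0.02 without PGE2 library 1 or without vehicle library 3 and -0.14 without vehicle library 1, so its sign rests on single libraries.

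**Figure D2:**
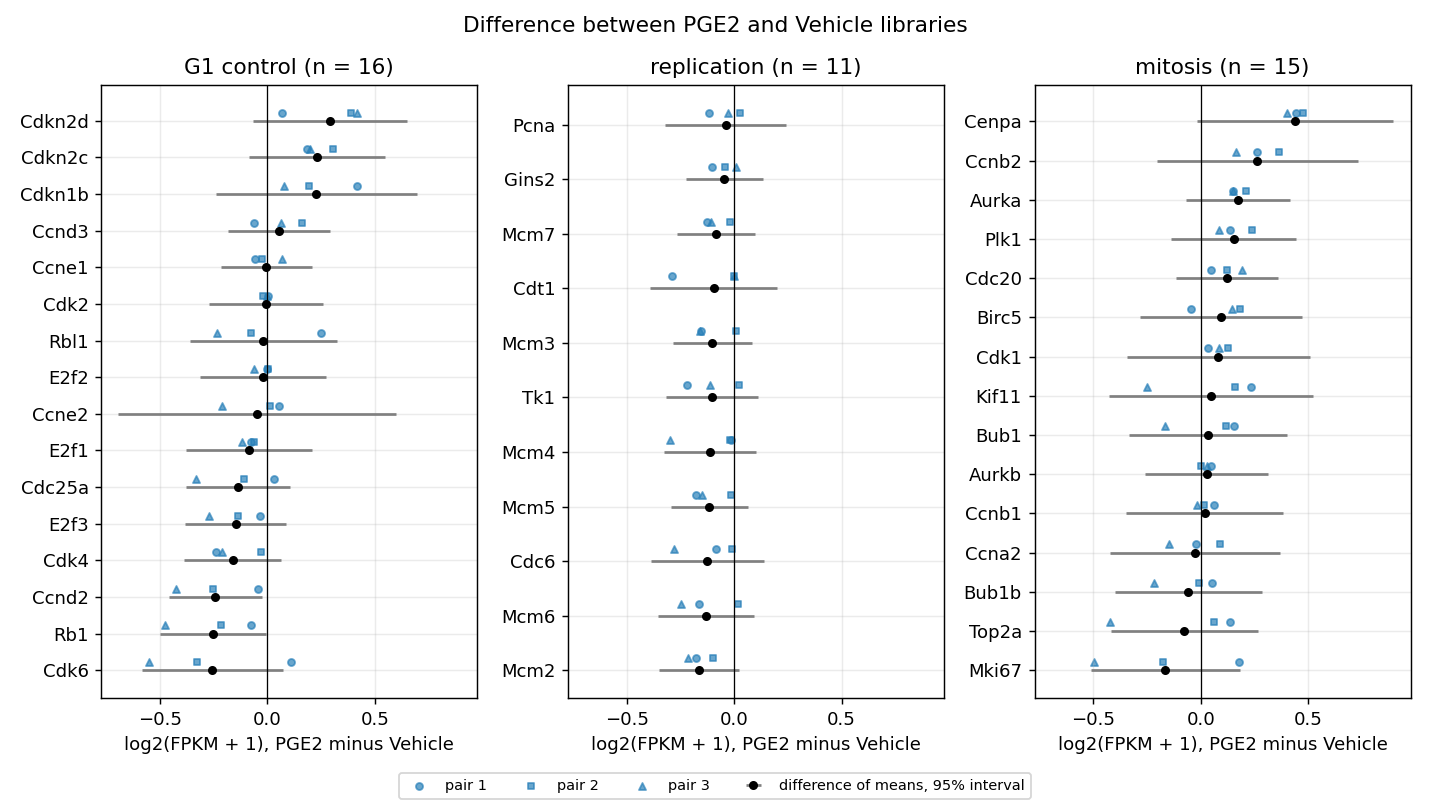
Difference in log2(FPKM + 1) between PGE2 and vehicle for the genes of each class, as the difference of means with its 95% interval from limma (black) and as the difference within each same-numbered pair (blue). All 11 replication members lie left of 0 with intervals that reach across it; Cenpa has 3 nearly equal pairs.

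All 11 replication genes had a lower mean with PGE2, by 0.04 to 0.16 on the log2 scale, where 56.7% of all tested genes had a lower mean. None passed the test, and their median difference was -0.10 (log2), against -0.03 over tested genes. Mcm2 (ENSMUSG00000002870.8, chromosome 6, 88883474 to 88898780, minus strand) encodes a subunit of the MCM helicase that unwinds DNA at the fork. It was at 72.3, 75.9 and 68.1 FPKM in PGE2 libraries 1 to 3, against 81.9, 81.3 and 79.2 in vehicle libraries 1 to 3. Every PGE2 library was below every vehicle library. The difference was -0.16 (log2, SE 0.08, 95% interval -0.35 to 0.02), with adjusted p = 0.45 by limma. Mcm5 and Mcm7, subunits of the same helicase, also had groups that did not overlap, at 102.5 ± 3.06 and 108.4 ± 4.1 FPKM with PGE2 and 111.1 ± 3.46 and 114.9 ± 2.36 with vehicle (SD, n = 3 each). Groups with every PGE2 library below every vehicle library made up 11.9% of tested genes. They were 5 of the 42 members, the same share: these 3 of the 11 replication members, with Ccnd2 and Rb1. The reverse, every PGE2 library above every vehicle library, made up 7.81% of tested genes and 0 of the 42.

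Mcm6 was at 107.8, 123.6 and 101.01 FPKM in PGE2 libraries 1 to 3, against 121, 121.9 and 119.9 in vehicle libraries 1 to 3. PGE2 library 2 stood above all vehicle libraries and the other two below. Mcm3 and Mcm4 differed by -0.10 and -0.11 (log2). The 6 MCM genes, whose proteins join in equal number, lay in a narrow band of levels, between 72.1 and 110.8 FPKM as means with PGE2 and between 80.8 and 120.9 with vehicle.

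Among the loading factors, Cdc6, which brings the helicase to origins with Cdt1, was at 13.7, 15.5 and 15.3 FPKM with PGE2, against 14.6, 15.6 and 18.7 with vehicle. The groups overlapped, and the difference was -0.12 (log2, 95% interval -0.39 to 0.14). In PGE2 library 3 the annotated entry of Cdc6 was 84.7% of its assembled locus, against at least 94.4% in every other library. That locus was at 13.9, 16.4 and 18 FPKM in PGE2 libraries 1 to 3, against 14.8, 15.9 and 19.1 in vehicle libraries 1 to 3. Cdt1 was at 43.1 ± 5.24 and 46.1 ± 5.6 FPKM, and Gins2, a subunit of the active helicase complex, at 14.6 ± 0.324 and 15.1 ± 0.315 (SD, n = 3 each). Pcna, the sliding clamp of DNA polymerase and the most abundant of the 42 genes, was at 279.5, 311.9 and 351.5 FPKM in PGE2 libraries 1 to 3, against 302.9, 305.9 and 358.6 in vehicle libraries 1 to 3. Its difference of -0.04 (log2) turned to 0.04 without PGE2 library 1 or without vehicle library 3. Tk1, a thymidine kinase of S phase, was at 58.7 ± 5.15 and 62.9 ± 2.39 FPKM. The count of 11 lower means held under every alternative scaling tried, and was 10 or 11 when a single library was left out. The class median was -0.15 without PGE2 library 2 and -0.07 without vehicle library 3.

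**Figure D3:**
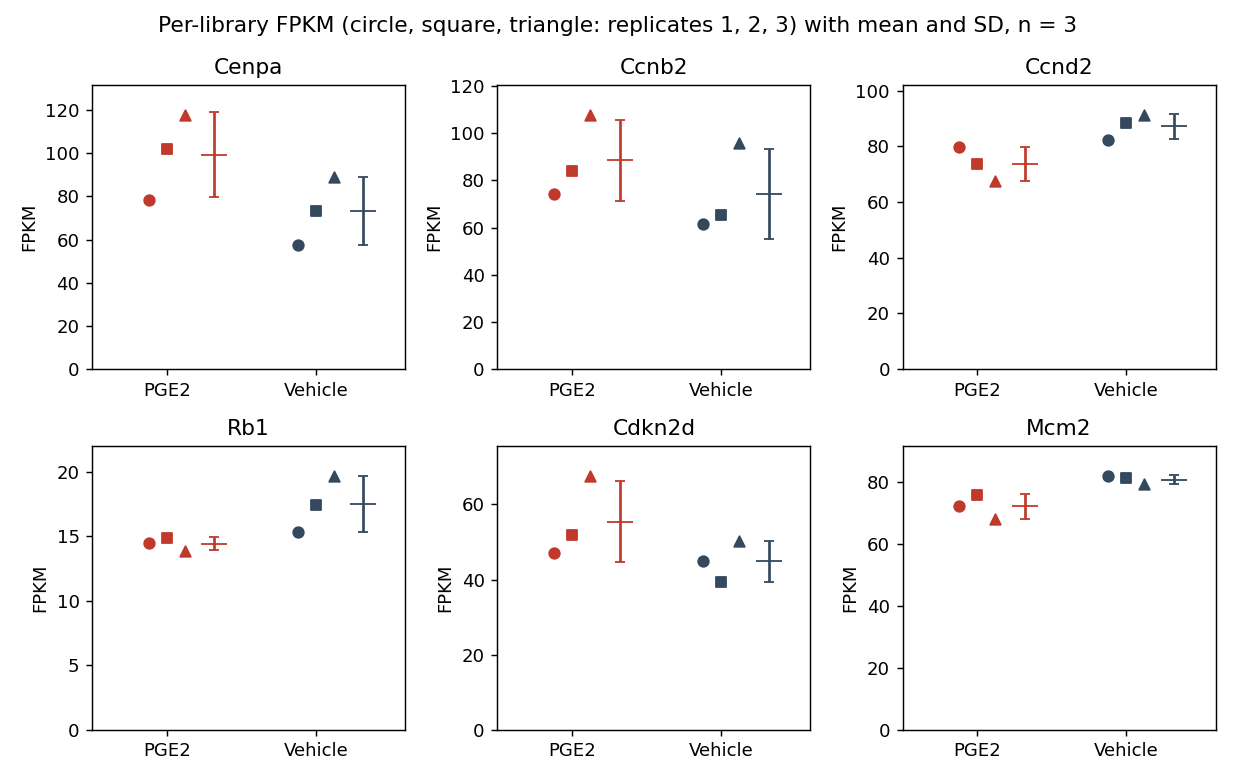
FPKM in every library of 6 genes, PGE2 left of vehicle, with the mean and SD of 3 libraries beside the points. Cenpa, Ccnb2 and Cdkn2d overlap between the groups, while Ccnd2, Rb1 and Mcm2 do not.

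Of the 15 mitosis genes 11 had a higher mean with PGE2, with Cenpa at the upper end. The class median was 0.05 (log2), and its sign depended on single libraries. Cenpa (ENSMUSG00000029177.9, chromosome 5, 30666777 to 30674830, plus strand) encodes the histone variant that marks centromeres. It was at 78.5, 102.2 and 117.6 FPKM in PGE2 libraries 1 to 3, against 57.5, 73.3 and 88.9 in vehicle libraries 1 to 3. Replicate 1 was lowest and replicate 3 highest in both groups, so the groups overlapped, while each PGE2 library stood above the vehicle library of the same number by 0.44, 0.47 and 0.4 (log2). The difference of means was 0.44 (log2, SE 0.2, 95% interval -0.02 to 0.9), with adjusted p = 0.4 by limma. With the replicate number as a block Cenpa rose at adjusted p = 0.03 by limma (SE 0.07), 1.36-fold. That fit called 1.77% of tested genes as higher and 1.49% as lower. The call rests on the assumed pairing of numbers 1 and 2. With these exchanged, 78.5 would stand against 73.3 FPKM and 102.2 against 57.5, which are less alike as differences, and that fit was not made. In read coverage in place of FPKM the difference of Cenpa was also 0.44, although the ratio of coverage to FPKM moved 1.2-fold between libraries, the most of any member.

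Neither B-type cyclin passed the test. Ccnb2 was at 74.1, 84.2 and 107.6 FPKM in PGE2 libraries 1 to 3, against 61.6, 65.1 and 96 in vehicle libraries 1 to 3. It was higher with PGE2 in each pair, with a difference of 0.26 (log2, SE 0.2, adjusted p = 0.65 by limma). Ccnb1 was at 38.8 ± 6.12 FPKM with PGE2 and 38.4 ± 7.03 with vehicle (SD, n = 3 each), a difference of 0.02 (log2). In PGE2 library 1 its annotated entry, at 35.6 FPKM, was 66.1% of the assembled locus, at 53.9 FPKM. In every other library the entry was at least 98.1% of the locus. Whether the 2 cyclins differ in response was not tested. Ccna2, the A-type cyclin of S and G2 phase, differed by -0.03 and their kinase Cdk1 by 0.08 (log2). Aurka, the kinase of spindle poles, was at 32.4, 34.8 and 38.4 FPKM with PGE2, against 29.1, 29.9 and 34.5 with vehicle. It was higher in each pair by 0.15 to 0.21 (log2), and the mean difference was 0.17 (log2, SE 0.1, adjusted p = 0.56 by limma).

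Plk1, a kinase of mitotic entry, differed by 0.15, Cdc20, the activator of the anaphase-promoting complex, by 0.12, and Aurkb, the kinase of the chromosomal passenger complex, by 0.03 (log2). Together with Cenpa, Ccnb2, Cdk1 and Aurka these made 7 of 15 mitosis members that were higher in every pair, where 17.7% of tested genes were, and 0 were lower in every pair. That count rests on the assumed pairing of numbers 1 and 2. Cdk1 and Aurkb were at 35.9 and 52.6 FPKM in PGE2 library 1, below the 37.9 and 57.2 of vehicle library 2. Birc5, or survivin, of the same passenger complex, was at 125.5 ± 24 FPKM with PGE2 and 116.8 ± 16.4 with vehicle. The spindle checkpoint kinase Bub1 and its relative Bub1b differed by 0.04 and -0.06 (log2), and Kif11, the motor that separates spindle poles, by 0.05 (log2).

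Mki67 and Top2a differed in sign from pair to pair. Top2a, the topoisomerase that untangles chromosomes and the mitosis member with the highest FPKM, was at 169.2, 171.3 and 168.1 FPKM in PGE2 libraries 1 to 3, against 153.9, 164.3 and 225.7 in vehicle libraries 1 to 3. The 3 PGE2 libraries were nearly equal in these values, and vehicle library 3 stood far above the other two. The assembled locus that holds Top2a was at 183.7, 188 and 207.8 FPKM in PGE2 libraries 1 to 3, so there library 3 was highest. In vehicle libraries 1 to 3 that locus was at 171.8, 181.6 and 262.2 FPKM. The annotated entry was 80.9% of the locus in PGE2 library 3, against 92.1% and 91.1% in PGE2 libraries 1 and 2. Mki67, the proliferation antigen Ki-67, was at 61, 56.7 and 57.8 FPKM with PGE2, against 53.7, 64.1 and 82.1 with vehicle, again with the highest value in vehicle library 3. The difference of Top2a was -0.08 (log2) and turned to 0.09 without vehicle library 3; that of Mki67 was -0.16 (log2, 95% interval -0.51 to 0.18). Over the class, 11 of 15 means were higher with PGE2, where 43.3% of tested genes were, and the median was 0.05 (log2). The class median was 0.20 without vehicle library 3, -0.04 without PGE2 library 3 and -0.06 without vehicle library 1. Without replicate 3 of both groups, an alternative added after the data were seen, all 15 means were higher with PGE2, where 46.4% of tested genes were, with a median of 0.09 (log2) and 0 members called.

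Within each group, replicate 3 differed from replicates 1 and 2, and it did so by class. In the PGE2 group 13 of 15 mitosis genes were higher in library 3 than in libraries 1 and 2, where 33.4% of tested genes were. The exceptions were Mki67 and Top2a, but the assembled locus of Top2a was highest in PGE2 library 3. In the vehicle group all 15 were higher in library 3 than in libraries 1 and 2, where 41.6% of tested genes were. Replicate 3 was highest in both groups for 21 of the 42 genes, 13 of them mitosis genes, where 22.3% of tested genes were. The median excess of replicate 3 over the mean of replicates 1 and 2 was 0.26 (log2) with PGE2 and 0.45 with vehicle for mitosis genes, against -0.04 and 0.01 over tested genes. It is 1 library against 2 in each group, so no test was made.

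**Figure D4:**
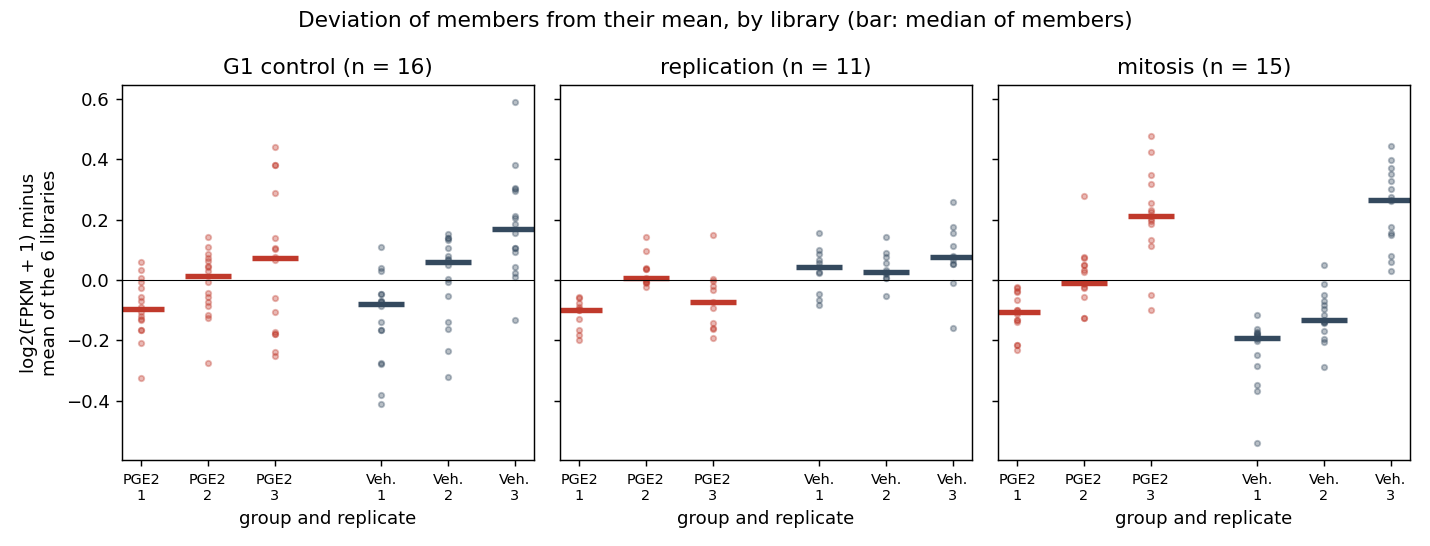
Each member's log2(FPKM + 1) minus its mean over the 6 libraries (points), with the class median as a bar, PGE2 libraries left of vehicle libraries. The mitosis medians of replicate 3 are 0.21 with PGE2 and 0.26 with vehicle, and the replication medians stay between -0.10 and 0.08.

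Among the 11 replication members the counts were smaller. Replicate 3 was above replicates 1 and 2 for 2 of 11 with PGE2 (Gins2 and Pcna) and for 6 of 11 with vehicle, with median excesses of -0.02 and 0.03 (log2). The count with PGE2 was 5 of 11 in read coverage and also with median-ratio scaling of FPKM. Among 42 other replication genes replicate 3 was above replicates 1 and 2 for 19 with PGE2 and 34 with vehicle, where 33.4% and 41.6% of tested genes were. Their median excesses were 0.06 and 0.15 (log2). Cdt1 was lower in replicate 3 in both groups, by 0.16 (log2) with PGE2 and 0.31 with vehicle, and so was E2f1 of the G1 genes, by 0.31 and 0.26. G1 genes were divided. PGE2 library 3 was the lowest of its group for 4 of 16, where 46.1% of tested genes were, and vehicle library 3 for 1 of 16, where 39.3% were. Replicate 3 exceeded the others for 8 of 16 with PGE2 and 14 of 16 with vehicle, led by Ccne2 with an excess of 0.61 (log2) with PGE2 and 0.85 with vehicle. Cdkn1b had an excess of 0.4 (log2) with PGE2 and 0.63 with vehicle. Its ratio of coverage to FPKM, relative to the library's constant, was 0.607 in vehicle library 3, against 0.728 and 0.720 in vehicle libraries 1 and 2. In PGE2 library 3 that ratio was 0.684, against 0.709 and 0.712 in PGE2 libraries 1 and 2. The excess of Cdkn1b is therefore smaller in coverage, more so with vehicle. Cdkn1b, Cdkn2c and Cdkn2d were each highest in replicate 3 of both groups, as was Cdkn1a, while Cdkn2a and Cdkn2b were lowest there in both groups.

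Some genes were out of step between the groups. Ccnd2 was lowest in PGE2 library 3 and highest in vehicle library 3, and so were Rb1, Cdc25a, Mcm4 and Top2a. For Top2a this held for the annotated entry only, since its assembled locus was highest in library 3 of both groups. For 31 of the 42 genes the excess of replicate 3 was larger with vehicle than with PGE2, which held for 56% of tested genes. Kif11 showed the widest gap within mitosis after Top2a and Mki67, with 41.7, 44.8 and 51.9 FPKM in PGE2 libraries 1 to 3, against 35.3, 40.1 and 61.8 in vehicle libraries 1 to 3.

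**Figure D5:**
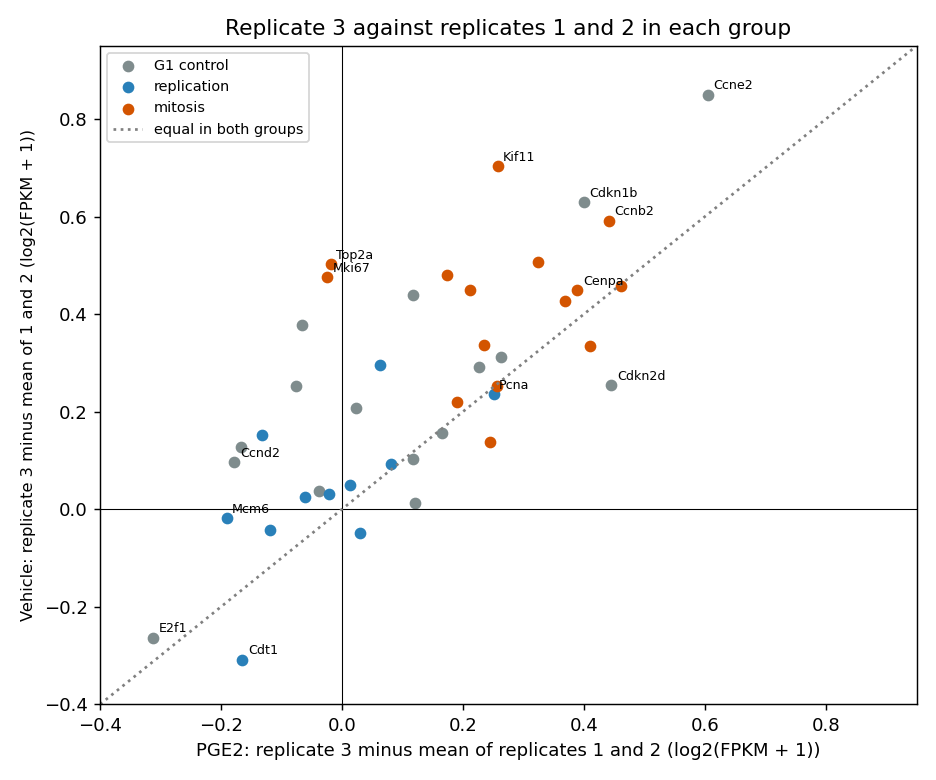
Difference between replicate 3 and the mean of replicates 1 and 2 (log2(FPKM + 1)) in the PGE2 group (horizontal) and the vehicle group (vertical) for the 42 genes, by class; the dotted line marks equal differences. Mitosis members (orange) lie above 0 on the vertical axis without exception, and E2f1 and Cdt1 lie at the lower left.

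Other measures moved with replicate 3. Depth was 4.54 gigabases in PGE2 library 3, against 5.45 and 5.19 in PGE2 libraries 1 and 2, and 4 in vehicle library 3, against 5.12 and 5.04 in vehicle libraries 1 and 2. Foxp3 was lowest in replicate 3 of both groups, as given with the check of the cells. The CD8 and NK list summed to 13.2 FPKM in replicate 3 of both groups, against 10.7 and 10.4 in PGE2 libraries 1 and 2 and 10.9 and 9.87 in vehicle libraries 1 and 2. Within that list Klrd1, a lectin receptor of NK cells, was at 2.54, 2.26 and 4.5 FPKM in PGE2 libraries 1 to 3, against 0.961, 0.627 and 2.78 in vehicle libraries 1 to 3. Cd8b1 was at 5.31, 5.6 and 5.88 FPKM, against 4.73, 4.96 and 4.68, and Cd8a at 0.61, 0.733 and 0.762, against 0.868, 0.601 and 0.598, both lowest in vehicle library 3. Eomes was at 2.2, 1.77 and 2.02 FPKM with PGE2, against 4.32, 3.68 and 5.14 with vehicle. The part of these measures in the replicate 3 values was not tested.

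The wider pathway was read from 3 lists of other genes. Of 45 other mitosis genes tested, 0 rose and 0 fell, and 32 had a higher mean with PGE2, where 43.3% of tested genes had. Of the same 45, 37 with PGE2 and 42 with vehicle were highest in replicate 3, where 33.4% and 41.6% of tested genes were. Cdc25b, a phosphatase that activates Cdk1, was at 48.2, 47.3 and 53.6 FPKM in PGE2 libraries 1 to 3, against 41.3, 40.3 and 48.7 in vehicle libraries 1 to 3, with adjusted p = 0.49 by limma. Smc4, a condensin subunit, was at 114.8, 125.5 and 114.2 FPKM in PGE2 libraries 1 to 3, against 85.3, 102.5 and 117.7 in vehicle libraries 1 to 3, and Wee1, the kinase that restrains Cdk1, at 6.26, 5.49 and 6.13, against 6.21, 6.96 and 9.23. The groups overlapped for both. Of 42 other replication genes 0 rose and 0 fell, and 35 had a lower mean with PGE2, where 56.7% of tested genes had. Uhrf1, which carries DNA methylation through replication, was at 95.5, 95.4 and 90 FPKM with PGE2, against 106.7, 107.9 and 112.8 with vehicle (adjusted p = 0.28 by limma). Orc2, of the origin recognition complex, was at 11.6, 12.7 and 11.7 FPKM with PGE2, against 13.5, 14.8 and 14.2 with vehicle, a difference of -0.22 (log2). Prim2, of primase, was at 16.7, 18.8 and 16.5 FPKM with PGE2, against 19.3, 19.4 and 21.1 with vehicle. Neither gene had overlapping groups, and both missed the test (adjusted p = 0.32 and 0.43 by limma). Every PGE2 library lay below every vehicle library for 11.9% of tested genes.

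Among 23 other G1 genes tested 0 rose and 1 fell, where 0.57% and 0.239% of tested genes did. Ccng1, an atypical cyclin induced by p53, fell to 56.9, 51.3 and 53.6 FPKM in PGE2 libraries 1 to 3, against 81.1, 80.1 and 85.8 in vehicle libraries 1 to 3. The groups were far apart, with a difference of -0.60 (log2, SE 0.08) and adjusted p = 0.026 by limma. It missed the threshold when any single library was left out, at adjusted p of 0.061 to 0.16 by limma, and at 0.054 without replicate 3 of both groups, and its difference in coverage was -0.57. Tfdp1, the partner that E2F factors need to bind DNA, was at 89.6, 91.7 and 85.8 FPKM with PGE2, against 108.5, 107.2 and 112.5 with vehicle. Its groups did not overlap, and the difference was -0.29 (log2, SE 0.08, adjusted p = 0.15 by limma). Ccng2, a cyclin of arrested cells, was at 16.4, 17.9 and 21.9 FPKM with PGE2, against 11.9, 12.5 and 16.7 with vehicle (difference 0.43, SE 0.16). It had adjusted p = 0.3, and rose with the replicate block (adjusted p = 0.039 by limma).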

How the data were processed

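RNA of 3 PGE2 and 3 vehicle samples was extracted with a column kit and made into stranded poly(A) libraries, per the labels' protocols. Reads were trimmed with Trim Galore and aligned with HISAT2 to mm10, per the submitters' processing notes; neither versions nor the tool behind the per-gene values are named there. The deposited tables hold, per the file headers, coverage, FPKM and TPM per gene for annotated genes and assembled loci. The TPM values the authors deposited were set aside as a score, since that column lists many loci both as an assembled locus and as an annotated gene. No count model was used, since the values are not counts.

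From the FPKM values, entries of 1 gene ID were summed, genes averaging 1 FPKM or more across all 6 libraries were kept (12113), and log2(FPKM + 1) was tested with limma 3.58.1 (R 4.3.3) with a mean-variance trend, two-sided, adjusted by Benjamini-Hochberg over all tested genes at 0.05. Fold changes are on the log2(FPKM + 1) scale, which understates changes of low genes. Depth came from the ratio of coverage to FPKM. The fit on coverage used values scaled between libraries by the median ratio, so it differs from the main fit in scaling too. Mcm4, whose ratio of coverage to FPKM was constant, moved from -0.11 to -0.08 (log2) in that fit. Pairing was checked by replicate number, which the labels share between groups: the deviations from the group means correlated at 0.23, 0.31 and 0.53 for numbers 1, 2 and 3. PGE2 library 1 correlated at 0.27 with vehicle library 2, and PGE2 library 2 at 0.15 with vehicle library 1. The check therefore set only number 3 apart and could not tell numbers 1 and 2 from each other. Pairing by number was kept as an assumption, and the fit with a replicate block is given where it changes a call. The steps were tested on simulated data. Promoter windows came from RefSeq's table (GRCm38.p6). The members and gene lists were chosen with earlier results of these data known. Values per library were to be given for members called or with an unadjusted p under 0.05, and in each class for the member with the highest level and the 3 with the largest differences; of the other pathway genes, for those called and the 3 with the smallest p in each list. Other members given per library (Ccne2, Kif11 and Mki67) and the other CDK inhibitors and E2F factors were chosen after their values were seen. Figures were drawn with matplotlib 3.10.9. The summed level of the B cell markers is not reported here.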

Additional observations from a re-analysis of the deposited data

How the results depend on the processing

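Of all tested genes 69 rose and 29 fell. Without the filter on low values 33 rose and 12 fell, in coverage (also scaled by the median ratio) 151 and 44, and without the mean-variance trend 16 fell. Leaving out single libraries gave 16 to 53 that rose and 4 to 16 that fell; without replicate 3 of both groups (added after seeing the data) 44 fell. With the replicate block, which pairs the libraries by number, 215 rose and 180 fell; 1 member (Cenpa, difference 0.44) and 1 other pathway gene (Ccng2, difference 0.43) rose, and it changed no other call among the genes named. Under the other settings 0 members were called. The call of Ccng1 was lost in every fit without a single library (range 0 to 0 other pathway genes that fell) and without replicate 3 of both groups (0).

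The replication median ranged from -0.149 to -0.0718 (log2) with single libraries left out. Mitosis members with a lower mean numbered 4, but 1 to 10 with single libraries left out and 0 without replicate 3 of both groups; G1 members with a lower mean numbered 7 in coverage. Replication members highest in PGE2 library 3 numbered 5 with median-ratio scaling and 5 in coverage, and those lower in all 3 pairs numbered 3 in coverage and 8 after quantile normalization, against 5. Signs turned for Ccnd3 after quantile normalization (-0.068), for Pcna without PGE2 library 1 (0.043) or vehicle library 3 (0.040; range -0.122 to 0.0426 with single libraries left out), and for Top2a without vehicle library 3 (0.0916; range -0.183 to 0.0916) or without replicate 3 of both groups (0.10). The cause was not tested. With 3 libraries a group, precision is limited by replicate spread; read counts behind each value are unknown.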
